A study of Mus musculus with 6 samples.

Results

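Liver sinusoidal and pan-endothelial markers were examined in the livers of HFD and HFD+Allantoin-H mice as a set of 10 genes, out of 54532 genes with an Ensembl identifier in the deposited count table. They were listed by name as markers of a cell type, with earlier results of these data known. Of the 10, 5 mark the endothelium of the liver sinusoids (Stab1, Stab2, Lyve1, Clec4g and Fcgr2b) and 5 mark endothelial cells in general (Kdr, Pecam1, Cdh5, Eng and Egfl7). All 10 passed the filter on low counts and were among the 12795 genes tested. The mice were wild-type C57BL/6J males that were given a high-fat diet (HFD) for 4 weeks. Their age at the start, 8 weeks, is that of the study's methods, and the labels name 4 weeks in a wording that can be read as an age or as a time on the diet. Both groups then stayed on the diet for another 4 weeks, and the HFD+Allantoin-H group received allantoin, the product of uric acid oxidation, in the drinking water at 0.3 mg/mL during that time. The labels name a lower dose of 0.06 mg/mL as well and do not say which library had which, and the dose given here is that of the study's methods. Whole-liver RNA gave 3 libraries per group, HFD replicates 1 to 3 and HFD+Allantoin-H replicates 4 to 6, and since neither the labels nor the methods tie each library to a separate mouse, p-values measure the spread between these libraries.

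The sinusoids are the capillaries of the liver, and their endothelial cells carry open pores and lack a continuous basement membrane, so that plasma reaches the hepatocytes directly. These cells are also the main scavengers of the blood. They take up modified proteins, hyaluronan and immune complexes through receptors that most other endothelial cells do not make, and they lose part of this equipment in fatty and fibrotic livers. Several of the markers are not exclusive to endothelium, since Stab1 and Fcgr2b are made by macrophages, Fcgr2b by B cells, Lyve1 by lymphatic vessels and Pecam1 by platelets.

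The libraries held between 11326372 and 14601457 counts. The mitochondrial chromosome held 17.9% to 36.5% of a library with HFD alone and 6.92% to 11.4% with HFD+Allantoin-H, and the scaling factors of the trimmed mean of M-values (TMM) were 0.756 to 0.951 and 1.12 to 1.19. HFD replicate 2 stood apart by RNA of adipose tissue. Adipoq, the fat-cell hormone adiponectin, was at 51.4 CPM (counts scaled by TMM to a common library size) in that library and at no more than 0.0733 CPM in any other. Each marker is therefore given with and without that library, and the lists of other genes wherever leaving it out changed a count of calls. Albumin (Alb), the main secreted protein of hepatocytes, stood between 54402 and 82145 CPM, and each of the 10 markers was detected everywhere, with 17 to 727 counts per library.

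In the reported fit, Stab1 and Egfl7 were called lower in HFD+Allantoin-H livers and no marker was called higher. These counts are close to the shares of all tested genes given below, and other fits gave other counts. The call of Stab1 was kept in 14 of 17 settings and that of Egfl7 in 11. The call rule was an adjusted p under 0.05 in edgeR's quasi-likelihood test with Benjamini-Hochberg adjustment over all tested genes. It called 0 of the 10 markers higher, against 11.3% of all tested genes, and 2 of the 10 lower, against 13%. DESeq2 called 2 markers higher and 2 lower, and limma-voom 1 higher and 2 lower. At an unadjusted p under 0.05 in edgeR, 3 markers were higher and 2 lower, where all tested genes gave 18.6% and 20.5%. The groups were fully separated for 2 markers with higher levels, Lyve1 and Pecam1, against 22.4% of all tested genes, and for 2 with lower levels, Stab1 and Egfl7, against 21.9%. The median log2 fold change of the markers was 0.32 and that of all tested genes was -0.03. Without HFD replicate 2 the same fit called 3 of the 10 markers higher (9.83% of all genes) and 1 lower (12.5%), and the median of the markers was 0.63. In bulk tissue, fewer endothelial cells and less RNA per endothelial cell cannot be told apart.

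**Figure D1:**
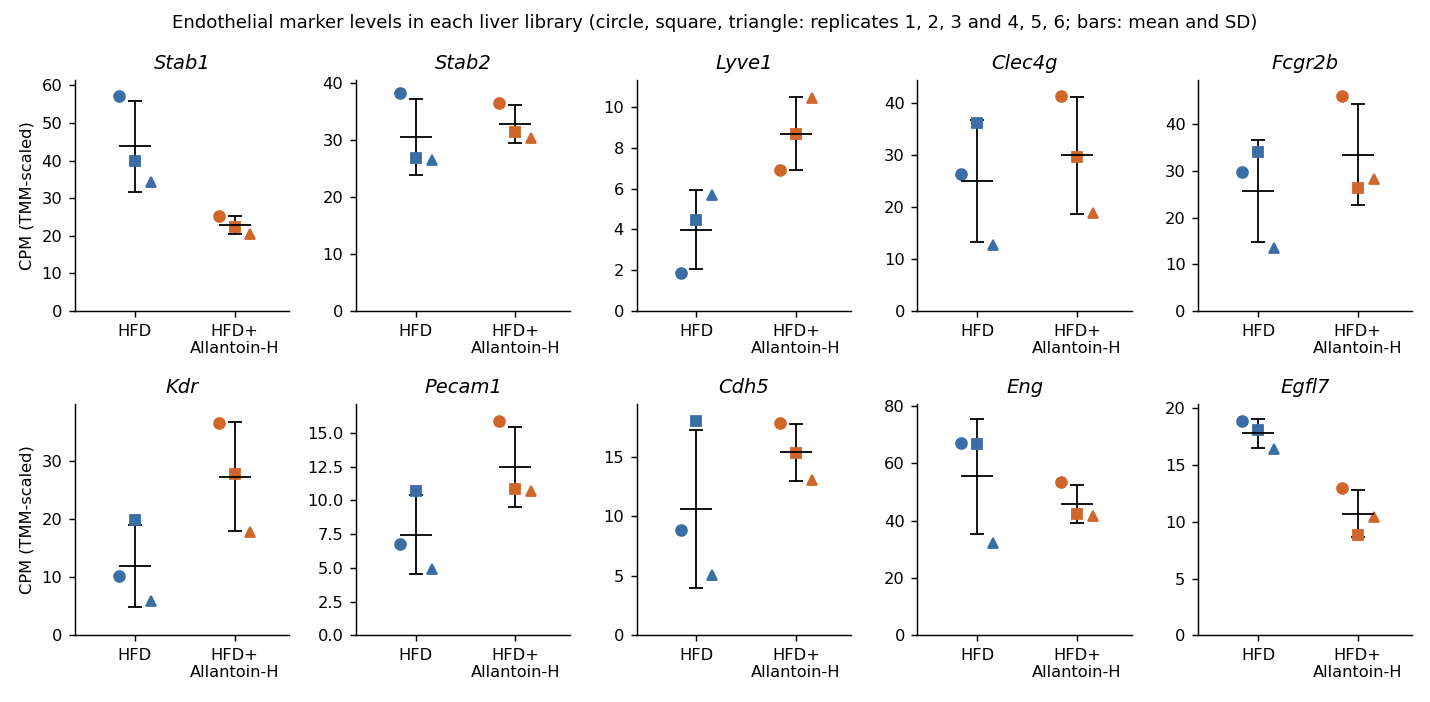
Level of each marker in CPM (TMM-scaled, axes from 0) in the 3 HFD libraries (blue) and the 3 HFD+Allantoin-H libraries (orange), with the mean and SD of each group as bars. All HFD+Allantoin-H libraries lie below all HFD libraries for Stab1 and Egfl7 and above them for Lyve1 and Pecam1, and the other 6 markers overlap between the groups.

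The bases just upstream of the annotated start are shown for the markers with the smallest p values that have an entry in the RefSeq promoter table of GRCm38.p6, and for Stab2, which was added after its values were seen because it is the paralog of Stab1. The table held 7 of the 10 markers, without Lyve1, Pecam1 and Cdh5. Capitals mark AGGAAG or CCGGAA on either strand, so that CTTCCT and TTCCGG are marked too. These are forms of the core bound by ETS factors, a family known for its role in endothelial genes. All run 5′ to 3′ on the strand of the gene and exclude exons of the GENCODE annotation. Stab1 is shown as chr14:31168642-31168891 (minus strand), Egfl7 at the first of its starts in the table as chr2:26580833-26581055 (plus strand), Kdr as chr5:75978459-75978705 (minus strand) and Stab2 as chr10:87008026-87008192 (minus strand).
Stab1: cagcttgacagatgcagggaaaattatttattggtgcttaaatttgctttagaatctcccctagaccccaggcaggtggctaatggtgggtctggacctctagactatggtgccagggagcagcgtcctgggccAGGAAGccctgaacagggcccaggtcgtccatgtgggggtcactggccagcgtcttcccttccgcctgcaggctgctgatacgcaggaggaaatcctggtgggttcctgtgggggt
Egfl7: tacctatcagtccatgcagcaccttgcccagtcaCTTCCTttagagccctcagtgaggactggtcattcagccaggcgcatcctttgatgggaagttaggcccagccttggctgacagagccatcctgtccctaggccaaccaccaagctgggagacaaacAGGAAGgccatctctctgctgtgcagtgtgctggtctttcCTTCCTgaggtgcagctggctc
Kdr: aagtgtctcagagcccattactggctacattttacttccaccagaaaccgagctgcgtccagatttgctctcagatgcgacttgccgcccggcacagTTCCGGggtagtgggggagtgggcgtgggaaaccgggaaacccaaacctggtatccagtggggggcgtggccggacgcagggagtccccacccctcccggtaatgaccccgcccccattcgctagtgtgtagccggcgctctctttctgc
Stab2: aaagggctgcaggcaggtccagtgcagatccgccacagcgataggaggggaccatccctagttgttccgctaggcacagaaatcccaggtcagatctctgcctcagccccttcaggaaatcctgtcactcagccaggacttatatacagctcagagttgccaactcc
The motif occurred 1 time in the 250 bases of Stab1, where 38.2% of all 32851 promoter windows cut to that length hold it, and 3 times in the 223 bases of Egfl7 (33.7% of windows). It occurred 1 time in the 247 bases of Kdr (37.8%) and 0 times in the 167 bases of Stab2 (25.2%). Of the markers not shown, Clec4g had the motif 3 times and Eng 2 times, each in 250 bases (38.2%). Fcgr2b had 0 bases left outside exons. At the other starts of Egfl7 the motif occurred 1 time in 249 bases (38.1%) and 0 times in 244 bases (37.3%). The motif was thus present in called and uncalled markers alike, and its number in Egfl7 depended on the start chosen. A match is a description of the letters in these windows, and no binding was measured.

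Among the scavenger receptors, Stab1 (stabilin-1, ENSMUSG00000042286, chromosome 14, 31139013 to 31168641, GRCm38) takes up acetylated lipoproteins and matrix fragments. Its level was 57.3, 39.8 and 34.3 CPM in HFD replicates 1 to 3 and 25.4, 22.4 and 20.6 CPM in HFD+Allantoin-H replicates 4 to 6. The lowest HFD library stood above the highest HFD+Allantoin-H library. Mean Stab1 was 43.8 ± 12.03 CPM with HFD and fell to 22.8 ± 2.41 CPM with HFD+Allantoin-H (SD, n = 3 each), which is -0.94 on the log2 scale (standard error, SE, of 0.21, 95% interval -1.43 to -0.46, adjusted p = 0.0153, edgeR). Without HFD replicate 2 this was -1.004 (adjusted p = 0.0231, edgeR). The call was kept in 14 of 17 settings, the reported fit included, and was lost when libraries were scaled by their totals alone (log2 fold change -0.49, adjusted p = 0.0901, edgeR), without HFD+Allantoin-H replicate 5 (adjusted p = 0.0705) and without HFD+Allantoin-H replicate 6 (adjusted p = 0.0673). Stab1 shares 112 exon bases with Nt5dc2 on the opposite strand, and the counting's use of strand is not given in the sources used here. Nt5dc2 itself had 23 to 56 counts with HFD and 69 to 120 with HFD+Allantoin-H.

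Stab2 (stabilin-2, ENSMUSG00000035459, chromosome 10, 86841198 to 87008025), the paralog of Stab1 and the main hyaluronan-clearing receptor of the sinusoids, was not called. Its level was 38.2, 26.8 and 26.4 CPM in the HFD libraries and 36.4, 31.4 and 30.2 CPM in the HFD+Allantoin-H libraries. The groups overlapped, with the highest value in HFD replicate 1. The log2 fold change was 0.10 (SE 0.19, 95% interval -0.33 to 0.54, adjusted p = 0.730, edgeR), and it was 0.02 without HFD replicate 2.

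Lyve1 (ENSMUSG00000030787, chromosome 7, 110850607 to 110863239) binds hyaluronan at the surface of sinusoidal and lymphatic endothelium. Its level was 1.86, 4.44 and 5.68 CPM in the HFD libraries and 6.89, 8.70 and 10.5 CPM in the HFD+Allantoin-H libraries, with no overlap. The mean was 4.00 ± 1.95 CPM (SD, n = 3) in HFD and 8.68 ± 1.79 CPM (SD, n = 3) in HFD+Allantoin-H. The log2 fold change of 1.11 (SE 0.39, 95% interval 0.23 to 1.98) did not pass the test (adjusted p = 0.0654, edgeR), and DESeq2 gave an adjusted p of 0.0250. It was 1.18 without HFD replicate 2 (adjusted p = 0.0984, edgeR) and was called higher without HFD replicate 3, at 1.45 (adjusted p = 0.0241, edgeR). The lowest value, in HFD replicate 1, rested on 17 counts. Of the genes of lymphatic vessels, the surface protein podoplanin (Pdpn) was at no more than 1.18 CPM and the matrix protein Mmrn1 at no more than 0.472 CPM in any library, while Reln (log2 fold change 1.41, adjusted p = 0.00685) and Flt4 (0.66, adjusted p = 0.0937), which other liver cells also express, were higher like Lyve1. The 6 genes of that list summed to 81.3 to 174 CPM in HFD and 159 to 194 CPM in HFD+Allantoin-H. Flt4 held 7.02 to 16.03 CPM of these sums, and most came from Reln and Prox1, so they are no measure of lymphatic vessels alone. Prox1 was called in 0 of 17 settings and had a log2 fold change of 0.05 without HFD replicate 2 (adjusted p = 0.925, edgeR). The part of lymphatic vessels in the Lyve1 values was not tested.

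Clec4g (ENSMUSG00000074491, chromosome 8, 3707064 to 3720651), a lectin of sinusoidal cells also known as LSECtin, was at 26.4, 36.1 and 12.7 CPM in the HFD libraries and at 41.4, 29.7 and 18.8 CPM in the HFD+Allantoin-H libraries. The values were widely spread in both groups and overlapped. Its log2 fold change was 0.26 (SE 0.38, adjusted p = 0.658, edgeR), with an interval of -0.61 to 1.13, and leaving out HFD replicate 2 gave 0.62, leaving out HFD replicate 3 gave -0.061. Fcgr2b (ENSMUSG00000026656, chromosome 1, 170958617 to 170976547) is the receptor with which sinusoidal cells clear small immune complexes. It was at 29.7, 34.2 and 13.5 CPM in HFD and at 46.0, 26.3 and 28.2 CPM in HFD+Allantoin-H. Both genes had their lowest value in HFD replicate 3 and their highest in HFD+Allantoin-H replicate 4. The log2 fold change of Fcgr2b was 0.38 (SE 0.34, 95% interval -0.40 to 1.16, adjusted p = 0.449, edgeR), and it was 0.64 when HFD replicate 2 was left out (adjusted p = 0.244, edgeR).

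Of the general endothelial markers, Kdr (ENSMUSG00000062960, chromosome 5, 75932827 to 75978458) encodes the main signalling receptor for vascular endothelial growth factor (VEGF). Its level was 10.3, 19.8 and 5.94 CPM in the HFD libraries and 36.4, 27.7 and 17.8 CPM in the HFD+Allantoin-H libraries. HFD replicate 2 lay above HFD+Allantoin-H replicate 6, which is the only overlap. The mean was 11.98 ± 7.07 CPM (SD, n = 3) in HFD and 27.3 ± 9.35 CPM (SD, n = 3) in HFD+Allantoin-H. The log2 fold change of 1.19 (SE 0.41, 95% interval 0.25 to 2.13) did not pass the test (adjusted p = 0.0648, edgeR). Kdr was called higher without HFD replicate 2, at 1.76 (SE 0.36, adjusted p = 0.0147, edgeR), and DESeq2 on all 6 libraries gave an adjusted p of 0.0175.

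Pecam1 (ENSMUSG00000020717, chromosome 11, 106654217 to 106750628) and Cdh5 (VE-cadherin, ENSMUSG00000031871, chromosome 8, 104101625 to 104144511) hold endothelial cells together. Pecam1 was at 6.77, 10.7 and 4.93 CPM in HFD and at 15.9, 10.8 and 10.7 CPM in HFD+Allantoin-H. The groups did not overlap, although HFD replicate 2 came close to the lowest HFD+Allantoin-H library. The log2 fold change of Pecam1 was 0.75 (SE 0.31, 95% interval 0.04 to 1.45, adjusted p = 0.110, edgeR). For Cdh5 the levels were 8.84, 17.97 and 5.10 CPM in HFD and 17.8, 15.3 and 13.0 CPM in HFD+Allantoin-H, so that HFD replicate 2 held the highest value of all. Its log2 fold change was 0.54 (SE 0.39, 95% interval -0.35 to 1.42, adjusted p = 0.344, edgeR). Both were called higher without HFD replicate 2, Pecam1 at 1.10 (adjusted p = 0.0329, edgeR) and Cdh5 at 1.15 (adjusted p = 0.0280, edgeR). Platelets also carry Pecam1. Of 6 platelet genes, 3 were tested, and 2 of them, Ppbp and Itga2b, were called lower, while the summed level of the 6 was 7.80 to 12.8 CPM in HFD and 3.02 to 3.85 CPM in HFD+Allantoin-H, with Gp1bb at 0 in every library. The part of platelets in the Pecam1 values was not tested.

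Eng (endoglin, ENSMUSG00000026814, chromosome 2, 32646595 to 32682669) is the endothelial co-receptor for the ligands BMP9 and BMP10. It was at 67.0, 66.8 and 32.4 CPM in HFD and at 53.3, 42.2 and 41.6 CPM in HFD+Allantoin-H. The HFD+Allantoin-H values lay inside the range of the HFD values. Its log2 fold change was -0.28 (SE 0.27, 95% interval -0.89 to 0.34, adjusted p = 0.491, edgeR), or -0.12 when HFD replicate 2 was left out. It was called lower without HFD replicate 3 (log2 fold change -0.55, adjusted p = 0.0477, edgeR), and its sign turned under scaling by library totals alone. Eng shares 61 exon bases with Fpgs on the opposite strand, which had 1235 to 2327 counts per library.

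Egfl7 (ENSMUSG00000026921, chromosome 2, 26580014 to 26593120) encodes a matrix protein secreted by endothelial cells and hosts the endothelial microRNA miR-126 in an intron. Its level was 18.9, 18.1 and 16.4 CPM in the HFD libraries and 13.0, 8.81 and 10.4 CPM in the HFD+Allantoin-H libraries. The groups did not overlap, and the 3 HFD libraries were closer together for Egfl7 than for any other marker, with a coefficient of variation of 7.17%. Mean Egfl7 was 17.8 ± 1.28 CPM with HFD and fell to 10.7 ± 2.10 CPM with HFD+Allantoin-H (SD, n = 3 each), which is -0.73 on the log2 scale (SE 0.20, 95% interval -1.18 to -0.28, adjusted p = 0.0299, edgeR). This call was kept in 11 of the 17 settings. Leaving out HFD replicate 2 gave -0.72 (adjusted p = 0.0554, edgeR), and the call was also lost without HFD replicate 1 (adjusted p = 0.0575) and without HFD+Allantoin-H replicates 5 (adjusted p = 0.130) or 6 (adjusted p = 0.101). Under scaling by library totals alone it was -0.31 (adjusted p = 0.312, edgeR). The 2 entries of miR-126 itself share 73 and 58 exon bases with Egfl7 and were at 0 counts in every library, which is no measure of the level of the mature microRNA. Egfl7 also shares 264 exon bases with Gm20532 on the same strand, which was at 0 counts in every library. It shares 64 exon bases with Agpat2 on the opposite strand, which had 1700 to 2795 counts per library.

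**Figure D2:**
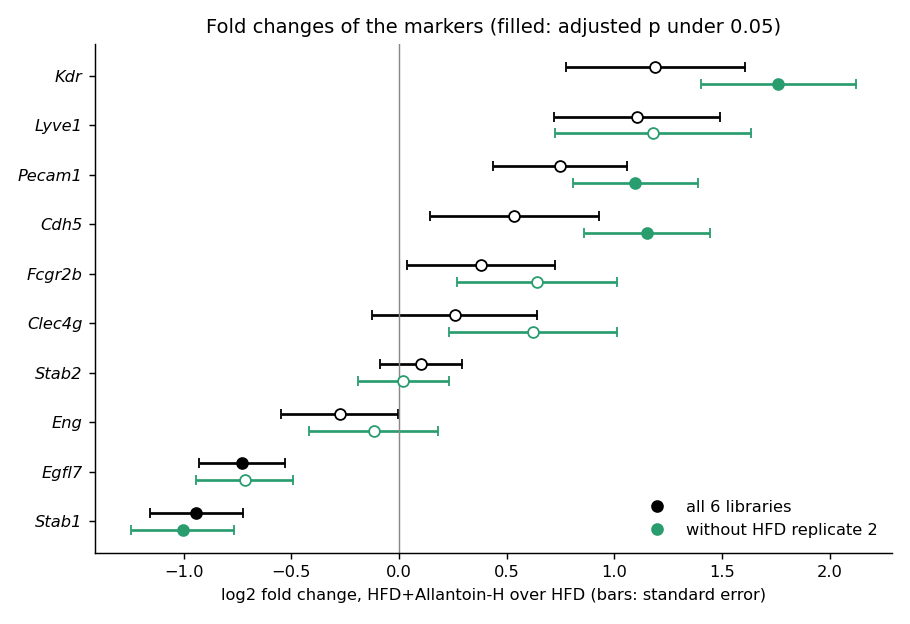
Log2 fold change of each marker, HFD+Allantoin-H over HFD, with its standard error, from all 6 libraries (black) and without HFD replicate 2 (green), where filled points have an adjusted p under 0.05 in edgeR. Kdr, Pecam1 and Cdh5 are called higher without HFD replicate 2, Stab1 is called lower in both fits and Egfl7 only with all libraries.

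The order of the markers by level per length of exon also differed between the groups. In HFD the means ran from Eng (13.7 CPM per kb), Clec4g (10.2), Egfl7 (4.97), Fcgr2b (4.45) and Stab1 (4.26 CPM per kb) to Stab2 (3.48), Cdh5 (2.53), Lyve1 (1.37), Kdr (1.33) and Pecam1 (1.20 CPM per kb). In HFD+Allantoin-H, Stab1 (2.22 CPM per kb) was in the ninth place instead of the fifth and Egfl7 (2.996) in the seventh instead of the third, whereas Kdr (3.02) was in the sixth instead of the ninth. Kdr, Egfl7 and Lyve1 (2.97) lay so close in HFD+Allantoin-H that their order there is within the spread between libraries, and the same holds for Lyve1, Kdr and Pecam1 in HFD. It also holds for Egfl7, Fcgr2b and Stab1 in HFD, for Stab1 and Stab2 in HFD, and for Stab1 and Pecam1 (2.01) in HFD+Allantoin-H. The exact places of Stab1, Egfl7 and Kdr are therefore uncertain. The summed level of the 10 markers overlapped between the groups, at 157 to 275 CPM in HFD and 202 to 293 CPM in HFD+Allantoin-H. Stab1 held 21.6%, 14.5% and 21.8% of the markers' counts in the HFD libraries and 8.67%, 10.04% and 10.2% in the HFD+Allantoin-H libraries. Kdr held 3.87%, 7.19% and 3.77% in HFD and 12.5%, 12.4% and 8.79% in HFD+Allantoin-H. Within the set of markers, the shares of these receptors did not overlap between the groups. Those of Egfl7 (6.58% to 10.4% in HFD, 3.95% to 5.15% in HFD+Allantoin-H) and Pecam1 (2.55% to 3.88% and 4.85% to 5.44%) did not either. Levels of single tested genes did not overlap in 22.4% (higher) and 21.9% (lower). The shares are parts of the same total, so a lower share of Stab1 by itself raises the others.

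Ratios of 2 markers within a library do not depend on how libraries are scaled, but no length or GC correction was applied to them. Transcript GC content was 57.3% for Stab1, 57.4% for Eng and 57.1% for Egfl7, against 51.7% for Stab2 and 52.2% for Cdh5. Its part in the ratios was not tested. The ratio of Stab2 to Stab1 was 0.667, 0.672 and 0.771 in the HFD libraries and 1.44, 1.40 and 1.47 in the HFD+Allantoin-H libraries. The values were tight within each group, HFD replicate 2 included, and the ratio was 2.05 times as high in HFD+Allantoin-H as in HFD (log2 difference 1.03, with SDs of the log2 ratio of 0.12 and 0.03, n = 3 per group). Without HFD replicate 2 the log2 difference was 1.002. With 3 libraries against 3, the two-sided exact permutation test cannot give a p below 0.1, and it gave p = 0.1, or 0.2 after Benjamini-Hochberg adjustment over the 10 ratios computed. Relative to Cdh5, Stab1 was at 6.48, 2.21 and 6.72 in HFD and at 1.42, 1.46 and 1.58 in HFD+Allantoin-H. Egfl7 relative to Cdh5 was at 2.14, 1.01 and 3.21 in HFD and at 0.728, 0.575 and 0.798 in HFD+Allantoin-H. Eng relative to Cdh5 was at 7.58, 3.71 and 6.34 in HFD and at 2.99, 2.75 and 3.197 in HFD+Allantoin-H, and for all 3 genes HFD replicate 2 lay closest to the HFD+Allantoin-H libraries. Kdr relative to Cdh5 was at 1.16, 1.10 and 1.16 in HFD and at 2.05, 1.81 and 1.36 in HFD+Allantoin-H, again without overlap. On the log2 scale the ratios to Cdh5 differed between the groups by -1.62 for Stab1, -1.46 for Egfl7, -0.92 for Eng and 0.59 for Kdr, and without HFD replicate 2 by -2.15, -1.92, -1.22 and 0.56. The exact p was 0.1 for each of these ratios as well. The other 5 ratios overlapped between the groups, namely those of Stab2, Clec4g, Fcgr2b and Pecam1 to Cdh5 and that of Lyve1 to Stab2, with exact permutation p values from 0.2 to 0.8. The ratios to Cdh5 share their denominator, whose coefficient of variation in HFD was the highest of the 10 markers at 62.2%. Of the 10 ratios, 2 were fully higher and 3 fully lower in HFD+Allantoin-H. The share of all gene pairs without overlap was not computed, and single tested genes did not overlap in 22.4% (higher) and 21.9% (lower). The ratios also carry over changes of single markers, such as that of Stab1.

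**Figure D3:**
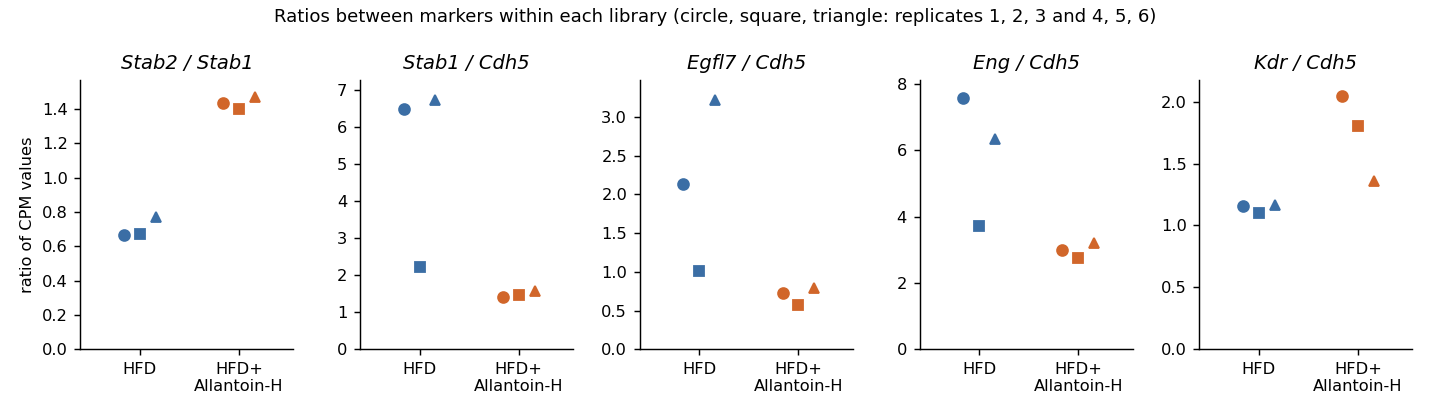
Ratio of 2 markers in each library (axes from 0), HFD in blue and HFD+Allantoin-H in orange, for the 5 of 10 computed ratios whose groups do not overlap. Stab2 to Stab1 lies between 0.667 and 0.771 in HFD and between 1.40 and 1.47 in HFD+Allantoin-H, while the ratios to Cdh5 are spread in HFD except that of Kdr.

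The fold changes were also set beside the base composition of the transcripts, since the median log2 fold change of all tested genes went from 0.09 in genes with a GC content under 44% to -0.37 in genes at or above 59%. Stab1 (57.3% GC), Eng (57.4%) and Egfl7 (57.1%) were the markers with the highest GC content and the 3 with log2 fold changes below 0. The median of all tested genes between 56% and 59% GC was -0.25, close to the value of Eng and above those of Stab1 and Egfl7. The remaining 7 markers had 45.4% to 52.2% GC and log2 fold changes above 0. With the dependence on transcript length and GC content taken out of each library, the log2 fold change was -0.85 for Stab1 (adjusted p = 0.00975, edgeR), -0.47 for Egfl7 (adjusted p = 0.0893), -0.11 for Eng (adjusted p = 0.773), 1.06 for Kdr (adjusted p = 0.0974) and 1.03 for Lyve1 (adjusted p = 0.0698). The call of Stab1 was kept and that of Egfl7 was lost.

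**Figure D4:**
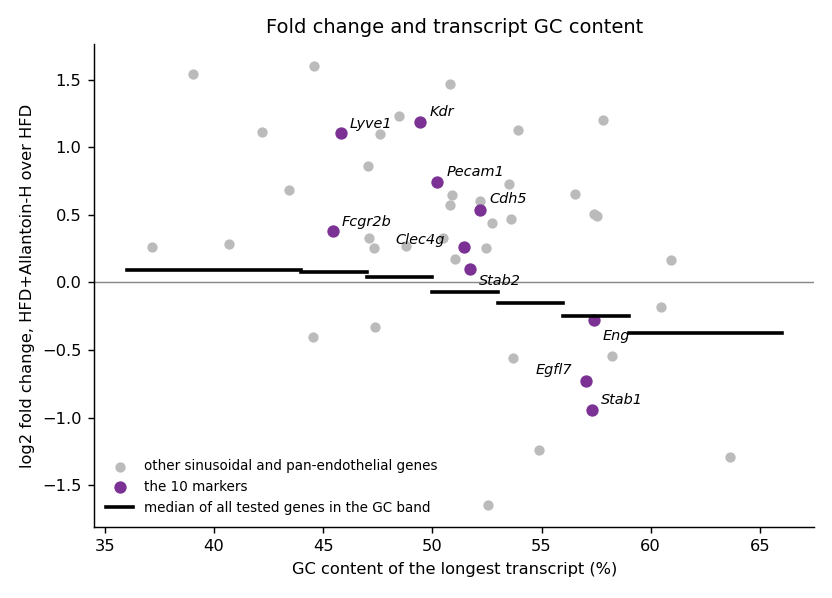
Log2 fold change, HFD+Allantoin-H over HFD, against the GC content of the longest transcript (percent) for the 10 markers (purple) and the other sinusoidal and pan-endothelial genes (grey), with the median of all tested genes in each GC band as bars. Stab1 and Egfl7 lie below the median of their band of -0.25, Eng lies near it, and the 7 markers under 53% GC lie above 0.

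The other genes of the same cells gave no decrease that passed edgeR's test in the reported fit. Counts in this and the following lists stand beside the shares of all tested genes, 11.3% called higher and 13% lower in edgeR. Without HFD replicate 2 these shares were 9.83% and 12.5%, with DESeq2 13.7% and 15.4%, and with limma-voom 11.9% and 12.5%. Of 12 other sinusoidal genes, all tested, 2 were called higher and 0 lower, and their median log2 fold change was 0.59. At an unadjusted p under 0.05 this was 5 and 0, and DESeq2 and limma-voom each called 3 and 0. The called genes were Dnase1l3, a secreted nuclease (log2 fold change 1.23, adjusted p = 0.0186, edgeR), and F8, clotting factor VIII, which is made by these cells (1.54, adjusted p = 0.0131). F8 was at 2.29, 6.42 and 5.10 CPM in HFD and at 13.5, 12.01 and 15.1 CPM in HFD+Allantoin-H. Among those not called, the values were 0.69 for the mannose receptor Mrc1 (adjusted p = 0.0606), 0.60 for Ehd3, 0.44 for Gpr182 and -0.33 for the transcription factor Maf. Without HFD replicate 2, 4 of the 12 were called higher and 0 lower.

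Of 25 other pan-endothelial genes, 24 were tested, and 2 were called higher (11.3% of all tested genes) and 0 lower (13%). Their median was 0.31 on the log2 scale. At an unadjusted p under 0.05, 5 were higher and 3 lower, limma-voom called 3 higher and 0 lower, and DESeq2 called 2 higher and 3 lower. Clec14a, an endothelial surface lectin, was at 3.49, 5.04 and 3.68 CPM in HFD and at 15.5, 9.88 and 11.7 CPM in HFD+Allantoin-H (log2 fold change 1.60, adjusted p = 0.00542, edgeR), and it was called in all 17 settings. Ptprb, the phosphatase VE-PTP that acts on VE-cadherin and Tie2, rose by 1.10 on the log2 scale (adjusted p = 0.0383). S1pr1, the receptor for sphingosine-1-phosphate, had 0.27 and Adgrf5 had 0.86, neither past the test. The lowest log2 fold changes were -1.64 for Sox17 (adjusted p = 0.0576), -1.29 for Rasip1 (adjusted p = 0.0593) and -1.24 for Robo4 (adjusted p = 0.0710), all 3 transcription or signalling genes of blood vessels that are named here after their values were seen. Set against the median of these genes, the log2 fold change of Stab1 differed by -1.25 and that of Egfl7 by -1.04, and that of Kdr was higher by 0.88. Without HFD replicate 2, 4 of the 24 were called higher and 0 lower.

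Among markers of particular vessel segments, edgeR called genes in 1 direction only in the reported fit, while the uncalled genes lay on both sides of 0. Of 10 genes of large vessels or of sinusoids that have become like ordinary capillaries, 7 were tested and 1 was called, Plvap, which forms the diaphragms of endothelial pores (log2 fold change 0.74, adjusted p = 0.0487, edgeR), while Vcam1 had 0.88 (adjusted p = 0.116). Of 6 genes of endothelium near the central vein, 5 were tested and 1 was called higher, the hepatocyte-directed ligand Wnt2 (1.81, adjusted p = 0.0387). Leaving out HFD replicate 2 gave 2 of the 5 called higher, with Rspo3, a ligand that enhances Wnt signals, as the second (1.65, adjusted p = 0.0153, against 1.08, adjusted p = 0.0786, with all libraries). Of 6 genes of periportal endothelium, all tested, 2 were called higher, Ltbp4 (1.65, adjusted p = 0.00605) and Ntn4 (1.39, adjusted p = 0.0157). These counts of increases stand beside the 11.3% of all tested genes called higher. Log2 fold changes above and below 0 were found for 3 and 4 of the large vessel or capillary-like genes (median -0.03). They were found for 3 and 2 of the genes near the central vein (median 1.08) and for 4 and 2 of the periportal genes (median 0.56). None of these 3 lists had a tested gene called lower by edgeR, DESeq2 or limma-voom, or at an unadjusted p under 0.05 in edgeR. The untested gene near the central vein, Wnt9b, was at 1.42, 0.988 and 0 CPM in HFD and at 0.220, 0.296 and 0.270 CPM in HFD+Allantoin-H. These values are near the floor, and Wnt9b was called lower in 1 of 17 settings. Of 6 genes of the response to shear stress, 5 were tested and 0 were called. At an unadjusted p under 0.05 in edgeR, Thbd was higher (log2 fold change 1.08, adjusted p = 0.0501) and Klf2 lower (-0.67, adjusted p = 0.0988), both named after their values were seen, and DESeq2 called 1 gene higher and limma-voom 0.

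The ligands and co-receptors of Kdr moved in both directions. Of 14 genes of the VEGF and angiopoietin system, 11 were tested, 1 was called higher (11.3% of all tested genes) and 2 lower (13%). Vegfa, the main ligand of Kdr, was at 139, 84.6 and 112 CPM in HFD and at 49.997, 62.2 and 49.4 CPM in HFD+Allantoin-H. On the log2 scale it changed by -1.05 (SE 0.21, adjusted p = 0.00971, edgeR), while the level of its receptor was on average higher. The co-receptor Nrp1 was at 205, 120 and 139 CPM in HFD and at 72.9, 65.3 and 61.6 CPM in HFD+Allantoin-H, and changed by -1.22 (adjusted p = 0.00679). Its paralog Nrp2 was at 6.004, 8.30 and 5.77 CPM in HFD and at 17.1, 15.4 and 17.4 CPM in HFD+Allantoin-H, and changed by 1.31 (adjusted p = 0.00489). None of these 3 genes overlapped between the groups. For Flt4, the receptor for VEGF-C, it was 0.66 (adjusted p = 0.0937). The list gave 3 genes called higher and 2 lower without HFD replicate 2, with Kdr and Flt4 (0.89, adjusted p = 0.0461) added. Vegfa and the neuropilins are also made by hepatocytes and other cells of the liver.

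Of 15 genes around endoglin, all tested, 5 were called higher (11.3% of all tested genes) and 0 lower (13%). DESeq2 and limma-voom gave the same counts, and at an unadjusted p under 0.05 in edgeR 6 were higher and 1 lower. Gdf2, which encodes BMP9 and is made in the liver, was at 9.50, 8.10 and 4.26 CPM in HFD and at 18.6, 22.5 and 16.1 CPM in HFD+Allantoin-H (log2 fold change 1.40, adjusted p = 0.0116, edgeR). Bmp10 was at 1.09, 0.296 and 0.0836 CPM in HFD and at 3.74, 5.09 and 3.51 CPM in HFD+Allantoin-H (3.12, adjusted p = 0.0116). The HFD values of Bmp10 are near the floor, so the size of its change is uncertain, from 2.58 to 4.42 over the settings. For both ligands of Eng, all HFD+Allantoin-H libraries lay above all HFD libraries. The receptor Bmpr2 (0.69, adjusted p = 0.0246), the signal carrier Smad5 (0.90, adjusted p = 0.0105) and the inhibitor Smad6 (1.23, adjusted p = 0.0134) were called higher too. The target genes Id2 (-0.17) and Id3 (-0.85) and the common partner Smad4 (0.50, adjusted p = 0.104) were not called. This became 5 higher and 1 lower without HFD replicate 2, since Id3 was then called lower (-1.26, adjusted p = 0.0325).

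The junction around Cdh5 gave 3 genes called higher (11.3% of all tested genes) and 1 lower (13%) of 10 tested, out of 11. Ctnnb1 (beta-catenin) was at 35.5, 51.9 and 55.2 CPM in HFD and at 143, 147 and 148 CPM in HFD+Allantoin-H (log2 fold change 1.62, adjusted p = 0.00292, edgeR). Jup (plakoglobin) had 0.72 (adjusted p = 0.0499), Ptprb is given above, and Ctnnd1 (p120-catenin) fell by 0.79 on the log2 scale (adjusted p = 0.0224). Ctnna1 (0.18), F11r (-0.14) and Tjp1 (0.50) were not called. The catenins and Tjp1 are also part of the junctions between hepatocytes. Of 10 Notch genes, 7 were tested and 1 was called higher, against 11.3% of all tested genes. This was the transcription factor Rbpj (1.01, adjusted p = 0.0155), while Notch1 was at 0.05. Some genes stand in more than 1 of these lists, among them Flt4, Tek, Tie1, Flt1, Ptprb, Cldn5, Esam, Nos3, Thbd and Dll4.

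**Figure D5:**
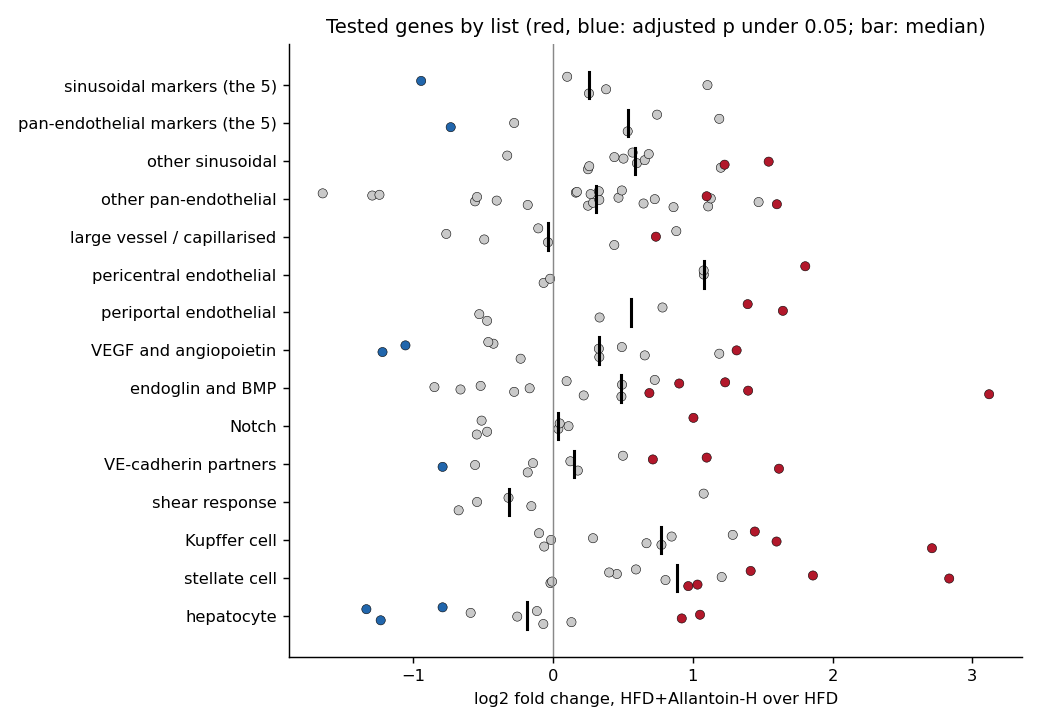
Log2 fold change of every tested gene (points), HFD+Allantoin-H over HFD, by list of endothelial, pathway and other cell type genes, with genes of an adjusted p under 0.05 in red (higher) or blue (lower) and the list's median as a black bar; a gene can stand in several lists. The 2 markers in blue, Stab1 and Egfl7, are the only decreases that edgeR called among sinusoidal and pan-endothelial genes, and the medians of the Kupffer and stellate lists (0.78 and 0.89) lie above those of the markers.

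Markers of other liver cells moved with the groups as well. Of 11 genes of Kupffer cells, the resident macrophages, 3 were called higher and 0 lower (median log2 fold change 0.78). All tested genes gave 11.3% and 13%, which also stand beside the stellate counts below. For the Kupffer list, DESeq2 and limma-voom each called 5 and 0, as did an unadjusted p under 0.05 in edgeR. Without HFD replicate 2 the Kupffer counts were 7 and 0. Their summed level was 172 to 405 CPM in HFD and 428 to 469 CPM in HFD+Allantoin-H. Cd5l rose (log2 fold change 1.60, adjusted p = 0.0164, edgeR), while Clec4f (0.29) and C1qa (-0.06) were not called, and none of the 11 was at 0 in any library. Of 12 genes of stellate cells, the pericytes of the sinusoids, 5 were called higher and 0 lower (median 0.89), as with DESeq2 and limma-voom, while an unadjusted p under 0.05 gave 6 and 0, with summed levels of 200 to 328 CPM in HFD and 439 to 505 CPM in HFD+Allantoin-H. Dcn (1.03, adjusted p = 0.00785) and Reln (1.41, adjusted p = 0.00685) rose and Ecm1 was not called (adjusted p = 0.993). The count was 6 higher and 0 lower without HFD replicate 2. Stab1 and Fcgr2b are also expressed by macrophages, and the part of Kupffer cells in their values was not tested.

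Of 10 hepatocyte genes, 2 were called higher (11.3% of all tested genes) and 3 lower (13%), with a median of -0.18. Alb was at 0.13, Apoa1 at -1.23 (adjusted p = 0.00790, edgeR) and Ttr at -0.79 (adjusted p = 0.0211). The counts were 0 higher and 3 lower without HFD replicate 2, with the increases of Apob (adjusted p = 0.106) and Cps1 (adjusted p = 0.0644) no longer called. Of 6 cholangiocyte genes, 3 were tested and 1 was called lower, Sox9. Of 6 lymphatic genes, 3 were tested and 1 was called higher, Reln, which stellate cells share, and without HFD replicate 2 Flt4 was called as well. Of 4 smooth muscle genes, 2 were tested and 1 was called lower, Acta2, at 11.4 CPM in HFD replicate 2 and at no more than 1.20 CPM elsewhere, a call that was lost without that library (adjusted p = 0.281). Of 6 B cell genes, 2 were tested and 0 called (1 lower with DESeq2 and at an unadjusted p under 0.05, 0 with limma-voom), and of 5 red cell genes, 0 were called (1 higher with each of these, and in edgeR without HFD replicate 2). Red cell genes summed to 332 CPM in HFD replicate 3, and to 876 to 1333 CPM in the other 5 libraries. That library also held the lowest value of Clec4g, Fcgr2b, Kdr, Pecam1, Cdh5 and Eng. The same held narrowly for Stab2 (26.4 CPM, against 26.8 CPM in HFD replicate 2). The part of blood or of vessel content in these values was not tested.

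The adipose list moved with HFD replicate 2. Its 9 genes summed to 309 CPM there and to 38.7 to 113 CPM in the other 5 libraries, of which Cfd accounted for most, and 5 of the 9, among them Adipoq and Plin1, were at 0 in HFD replicates 1 and 3. Of the 2 adipose genes tested, 1 was called lower, Adrb3, which was high in all HFD libraries. Adipose tissue holds blood vessels, and HFD replicate 2 had the highest HFD value of Kdr, Pecam1, Cdh5, Clec4g and Fcgr2b. Of these, Clec4g is a gene of sinusoidal cells and Kdr, Pecam1 and Cdh5 are made by vessels of fat as well, and how much of each came with the adipose RNA was not tested. Stab1, Stab2, Lyve1, Eng and Egfl7 had a value in HFD replicate 2 between those of the other HFD libraries.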

How the data were processed

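Liver RNA of 6 libraries, 3 per group, was measured by RNA sequencing. The authors filtered Illumina reads and deposited raw read counts per gene, not normalized. The submitters' processing notes name GRCm38 (mm10), and the aligner, the counting tool and its use of strand are not given in the sources used here. Of 54961 entries, 429 had no Ensembl identifier (0.197% to 0.306% of counts per library) and were not used. GENCODE M21 (GRCm38) supplied symbols, positions, exon lengths and GC content.

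The 12795 genes kept by filterByExpr were tested in edgeR 4.0.16 (R 4.3.3), after TMM normalization, by the quasi-likelihood method with group as the only term, and p-values were adjusted over all of them after Benjamini and Hochberg. No batch or date is given, so neither can be told apart from the group. Fold changes are HFD+Allantoin-H over HFD. Alternatives were other normalizations and filters, DESeq2 1.42.0, limma-voom (limma 3.58.1), a length and GC correction (splines with 5 degrees of freedom), no mitochondrial genes, a threshold of 0.01 and leaving out each library. The fit was also run on simulated data with 200 genes changed by a log2 fold change of 2. That size is above those of the markers, so the run does not bear on their calls.

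The markers and all gene lists were chosen with earlier results of these data known. Named were all markers, and from each endothelial list up to 6 called genes and up to 4 uncalled genes with at least 10 CPM, and up to 3 of highest level from each list of other cells, besides genes said to be named after their values were seen. A planned comparison of the stabilin proteins was not made here.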

Additional observations from a re-analysis of the deposited data

How the results depend on the processing

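Counts of called markers depended on the processing. Against 0 markers called higher and 2 lower as reported, scaling by library totals alone gave 3 and 0, and it moved the markers' median from 0.32 to 0.77 and that of all tested genes from -0.03 to 0.38, so that Eng turned to 0.17. It called 3162 of all genes higher and 674 lower. DESeq2 called 2 markers higher, limma-voom 1 and the fit with no low-count filter 3. Removal of the length and GC trend left 1 marker called lower, and a threshold of 0.01 left 0, with 443 of all genes higher and 573 lower. Fits that each left out 1 library called 0 to 3 markers higher and 0 to 3 lower, and 460 to 1773 of all genes higher and 564 to 2008 lower. In these fits the median of the markers ran from 0.04 (without HFD replicate 3) to 0.63 (without HFD replicate 2), and Clec4g ran from -0.061 (without HFD replicate 3) to 0.62 (without HFD replicate 2), with -0.037 without HFD+Allantoin-H replicate 4. The cause of these differences was not tested. No marker other than Eng and Clec4g changed the sign of its log2 fold change in any setting. No paired analysis was possible because the groups share no replicate numbers. The markers' counts, 17 at the lowest, limit Lyve1 most.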

Other observations

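The genes whose profile over the 6 libraries lay closest to the mean profile of the 10 markers were sought among 8602 genes that averaged 5 CPM or more, by the root mean square distance of centred log2 CPM. The nearest were Nlrx1 (distance 0.0675), Grhpr (0.0892), Klhl22 (0.0947), Igfbp7 (0.102), Ubtd1 (0.103), Bckdk (0.115), Flt1 (0.122) and Ndrg3 (0.122). Igfbp7, a secreted protein of vessels, and Flt1, a VEGF receptor, are genes of endothelium. Grhpr, a hepatocyte enzyme of glyoxylate metabolism, was as close as these. The mean profile itself was at -0.09, 0.25 and -0.60 in the HFD libraries and at 0.41, 0.07 and -0.04 in the HFD+Allantoin-H libraries. The distances of the single markers from their own mean ran from 0.241 for Fcgr2b and 0.265 for Pecam1 to 0.658 for Stab1 and 0.808 for Lyve1. The genes above were picked as the nearest of 8602, so their smaller distances follow from that choice. The distances describe 6 libraries that share their groups.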
